A study of Mus musculus with 4 samples.

Results

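The 8 genes Tbc1d1, Ccdc192, Myh9, Kif12, Dnah2, Tekt5, Tamm41 and BC107364 were those with several peaks of open chromatin listed for 0 h and not for 72 h. When overlapping peaks were merged into sites, the 3 peaks of Tamm41 formed 1 0 h-only site, and 1 of the 3 at Ccdc192 fell in a site that also held a 72 h peak. They were chosen by a measured value of these libraries: each had at least 3 regions that the authors listed as enriched at 0 h, with the gene as the containing or nearest protein-coding gene within 50 kb. They are 8 of 18252 protein-coding genes with an accessible site in the gene body or within 50 kb (0.0438%), and of 21883 protein-coding genes in the gene table. Tbc1d1 had 4 such regions and the other members 3, whereas 79 genes just outside the choice had 2 and 931 had 1. The study measured chromatin accessibility by ATAC-seq, in which the Tn5 transposase cuts open DNA, in organoids of C57BL/6J genotype, raised from jejunal crypts of the proximal small intestine. Each library was made from 30000 cells. The 0 h organoids stayed in CVENR medium, which holds CHIR99021, an activator of Wnt signalling through inhibition of GSK3, together with the histone deacetylase inhibitor valproic acid, mEGF, R-spondin and the BMP antagonist Noggin. The 72 h organoids were deprived of CHIR99021, valproic acid and Noggin for 72 h and received 100 ng/mL of recombinant BMP2, so both groups had mEGF and R-spondin, and BMP2 cannot be told apart from the change of medium. The series has 1 library at each of 0, 24, 48 and 72 h, of which those at 24 h and 48 h were not analysed here. No difference has a replicate check, and no p-value is given. In bulk organoids, fewer cells with a site open and a less open site in each cell cannot be told apart.

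Peaks of both libraries that overlapped by at least 1 bp were merged into sites. A site was shared when it held a peak of each library, and otherwise it was 0 h only or 72 h only. A peak was lenient when called at a p-value of 1e-05 and strict when also called at 1e-10. The 0 h library had 35857 lenient and 19910 strict peaks, and the 72 h library 41343 and 25040. The lists give positions and no heights, so the read depth is unknown, and "only" means that the other library had no overlapping lenient peak. Coordinates are mm10, 1-based. Gene starts were used to check the labelled tissue. The starts of all 7 intestinal epithelial markers with an annotated start, of 10 listed, lay in a site: those of Cdx2, Cldn7, Elf3, Krt18, Krt8 and Vil1 were shared and that of Epcam was 0 h only. None of 8 male germ cell markers, none of 3 fibroblast and smooth muscle markers and none of 2 immune markers had a start in a site, and 1 of 3 endothelial markers did (Kdr, 0 h only). For multiciliated cells, 3 of 6 markers did, and they are named with the relatives of the members. Of all protein-coding gene starts, 48.7% lay in no site, so these short lists are a coarse check.

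Open chromatin away from gene starts often marks enhancers, which bind transcription factors and differ between cell states, whereas open chromatin at gene starts marks promoters and varies less. In the gut, Wnt signalling keeps crypt cells dividing, and BMP signalling, which acts through SMAD factors, is stronger toward the villus. The members have no common pathway. Myh9 encodes the heavy chain of nonmuscle myosin IIA, the motor of the contractile actin cortex, and Kif12 a kinesin, a motor that moves along microtubules. Dnah2 encodes a heavy chain of the dynein arms of cilia and flagella, and Tekt5 a tektin, a filament protein of sperm flagella. Tbc1d1 encodes a Rab GTPase-activating protein that controls the trafficking of glucose transporter vesicles, and Tamm41 a mitochondrial enzyme on the path to cardiolipin. Ccdc192 encodes a coiled-coil domain protein.

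Annotated starts were available in the RefSeq promoter table (GRCm38.p6, the assembly of mm10) for 6 of the 8 genes. The 250 bases before 5 of these starts are given 5′ to 3′ on the strand of the gene, because the data differ among them: the Kif12 and BC107364 starts lay in 0 h-only sites, both Tbc1d1 starts and the Myh9 start in shared ones. Capitals mark the TCF/LEF motif CTTTGA at Kif12, the bases of a tRNA gene at BC107364 and the GC box GGGCGG, on either strand, at Tbc1d1 and Myh9. The intervals are chr4:63172132-63172381 (minus strand) for Kif12, chr3:96452307-96452556 (minus) for BC107364, chr5:64160010-64160259 and chr5:64230107-64230356 (plus) for the distal and proximal Tbc1d1 starts, and chr15:77842176-77842425 (minus) for Myh9.
Kif12: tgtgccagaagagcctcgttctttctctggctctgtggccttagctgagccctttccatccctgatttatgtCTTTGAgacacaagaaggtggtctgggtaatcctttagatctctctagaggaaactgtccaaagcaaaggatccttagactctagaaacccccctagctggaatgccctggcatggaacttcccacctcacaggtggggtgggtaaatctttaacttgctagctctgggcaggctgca
BC107364: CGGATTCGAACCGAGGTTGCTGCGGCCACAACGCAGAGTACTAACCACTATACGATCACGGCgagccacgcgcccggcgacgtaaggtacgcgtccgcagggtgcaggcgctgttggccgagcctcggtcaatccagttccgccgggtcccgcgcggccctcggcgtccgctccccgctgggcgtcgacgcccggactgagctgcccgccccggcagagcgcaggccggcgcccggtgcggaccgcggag
Tbc1d1 distal start: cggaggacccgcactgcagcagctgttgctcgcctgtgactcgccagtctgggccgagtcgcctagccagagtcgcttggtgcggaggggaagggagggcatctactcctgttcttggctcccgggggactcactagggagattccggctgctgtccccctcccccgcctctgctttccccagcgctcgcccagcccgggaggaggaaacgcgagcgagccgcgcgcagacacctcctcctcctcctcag
Tbc1d1 proximal start: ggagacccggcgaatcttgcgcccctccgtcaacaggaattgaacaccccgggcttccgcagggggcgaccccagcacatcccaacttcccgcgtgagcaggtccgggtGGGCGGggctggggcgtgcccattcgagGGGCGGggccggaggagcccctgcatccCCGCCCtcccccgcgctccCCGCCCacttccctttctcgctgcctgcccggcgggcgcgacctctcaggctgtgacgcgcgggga
Myh9: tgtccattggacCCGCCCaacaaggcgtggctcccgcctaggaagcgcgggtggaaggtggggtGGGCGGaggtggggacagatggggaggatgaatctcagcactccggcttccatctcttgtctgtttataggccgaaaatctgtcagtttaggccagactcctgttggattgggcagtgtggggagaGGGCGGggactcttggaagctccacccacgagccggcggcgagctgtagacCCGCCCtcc

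Of these windows, the Kif12 one had the lowest GC content, 50.4%, against a median of 52.4% over the 250 bases before all 32851 annotated starts. The others had 62.4% (Myh9), 68.4% and 73.6% (Tbc1d1) and 72.8% (BC107364). Over all starts, the median was 61.2% where the start lay in a 0 h-only site, 61.6% in a shared site, 51.2% in a 72 h-only site and 48.0% where it lay in none. CTTTGA, searched on both strands, was in the windows of 13.8% of all starts and of 10.4% (95% interval 8.32 to 12.7) of the 792 in 0 h-only sites. At starts in shared sites it was in 9.59%, and at starts in 72 h-only sites in 17.3% (13.8 to 21.4). GGGCGG was in 32.7% of all windows, in 64.5% of those at starts in shared sites and in 55.9% of those at starts in 0 h-only sites. The proximal Tbc1d1 window held 4 matches and the Myh9 window 4. In all, 10 motifs were searched on both strands, these 2 among them. The CDX motif, searched as TTTATNG, was in 9.81% of all windows. The GATA-factor motif, searched as AGATAA, was in 9.99%. The AP-1 motif, searched as TGANTCA, was in 6.75%. A GC-rich SMAD motif, searched as GGCGCC, was in 9.59%. The TATA box, searched as TATAAA, was in 12.4%. An HNF4 motif was in 0.384%, a SMAD palindrome in 0.167% and the B box of tRNA genes in 0.0335%. Myh9 also held overlapping CDX and TATA letters, and BC107364 a GC box and the GC-rich SMAD letters. The distal Tbc1d1 window held none of the 10. A match is a run of letters and does not show that a factor binds.

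Across the 8 genes, 104 sites were found, holding 109 peaks of the 0 h library and 76 of the 72 h library. Of these sites, 37 were 0 h only (35.6%, exact 95% interval 26.4 to 45.6), 53 were shared (51.0%, 41.0 to 60.9) and 14 were 72 h only (13.5%, 7.56 to 21.6). Over the 38823 sites of all protein-coding genes, counted the same way, 15.8% were 0 h only, 57.3% shared and 26.9% 72 h only. Of the 104 sites, 19 were 0 h only and strict (18.3%, 11.4 to 27.1; background 2.78%) and 5 were 72 h only and strict (4.81%, 1.58 to 10.9; background 9.84%). The members were chosen for 0 h-only regions, so the 0 h-only shares are a description and nothing is read from them. The chosen regions also count in the 104 sites, which lowers the shared and 72 h-only shares. Nothing is read from those either, and the 72 h-only share of sites called at 72 h is given further below. All intervals cover counting error only, and sites of 1 gene are not independent.

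**Figure D1:**
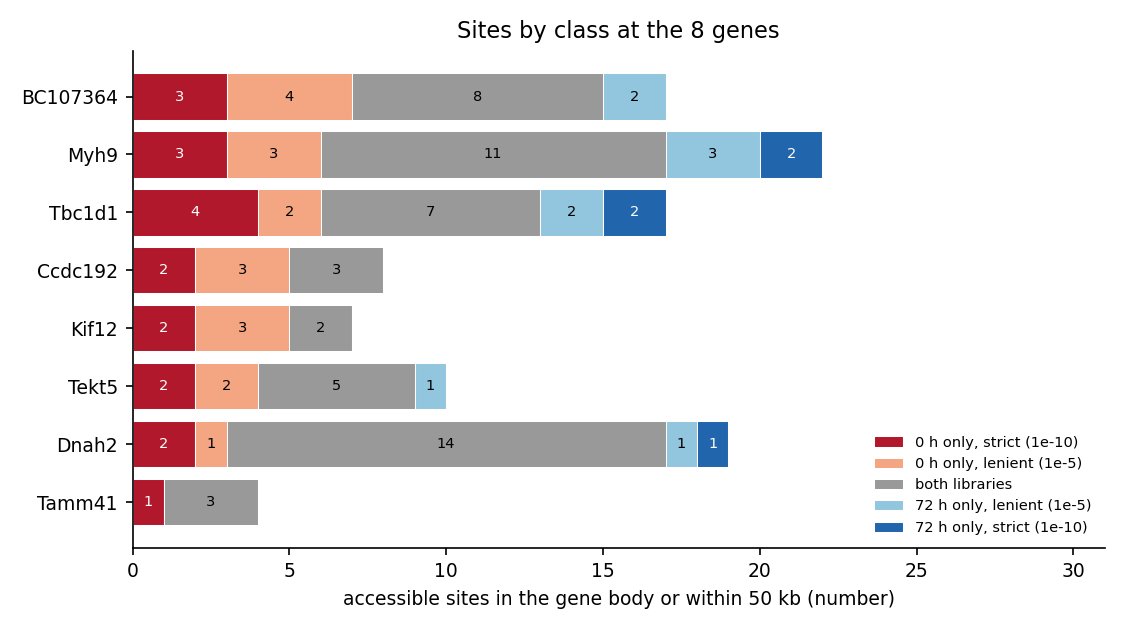
Number of accessible sites at each of the 8 genes (horizontal axis), split by class: 0 h only, both libraries, and 72 h only, with darker shades for strict peaks. Every gene has more 0 h-only than 72 h-only sites, and Ccdc192, Kif12 and Tamm41 have no 72 h-only site.

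The members differed in how much else was open around them. All 8 had more 0 h-only than 72 h-only sites, which held for 25.6% of all protein-coding genes with a site and follows in part from the choice. The order was not kept everywhere: Myh9 had equal numbers with peaks overlapping by at least 300 bp (6 and 6), with 1e-10 in both libraries (3 and 3) and with a gap of 1 kb to the other library (5 and 5). With that gap BC107364 had 2 and 2, from 7 and 2. Dnah2 had 2 and 2 with 1e-10 in both libraries. Inside the gene bodies alone, Tbc1d1 had 3 and 3, Tekt5 1 and 1, and Tamm41 none. At least 5 0 h-only sites were found at 5 of 8 members and at 0.986% of all genes with a site, again as the choice favours. Dnah2 had 14 shared sites among 19, Myh9 11 among 22 and BC107364 8 among 17. Kif12 stood at the other end, with 2 shared sites among 7. No 72 h-only site was found at Ccdc192, Kif12 or Tamm41, that is, at 3 of 8 genes, against 35.9% of all protein-coding genes with a site. With an overlap of at least 300 bp, Tamm41 had 1 72 h-only site. Strict 72 h-only sites were found at 3 of 8, Tbc1d1 and Myh9 with 2 each and Dnah2 with 1, against 33.1% of all such genes. Both shares lay near the background.

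**Figure D2:**
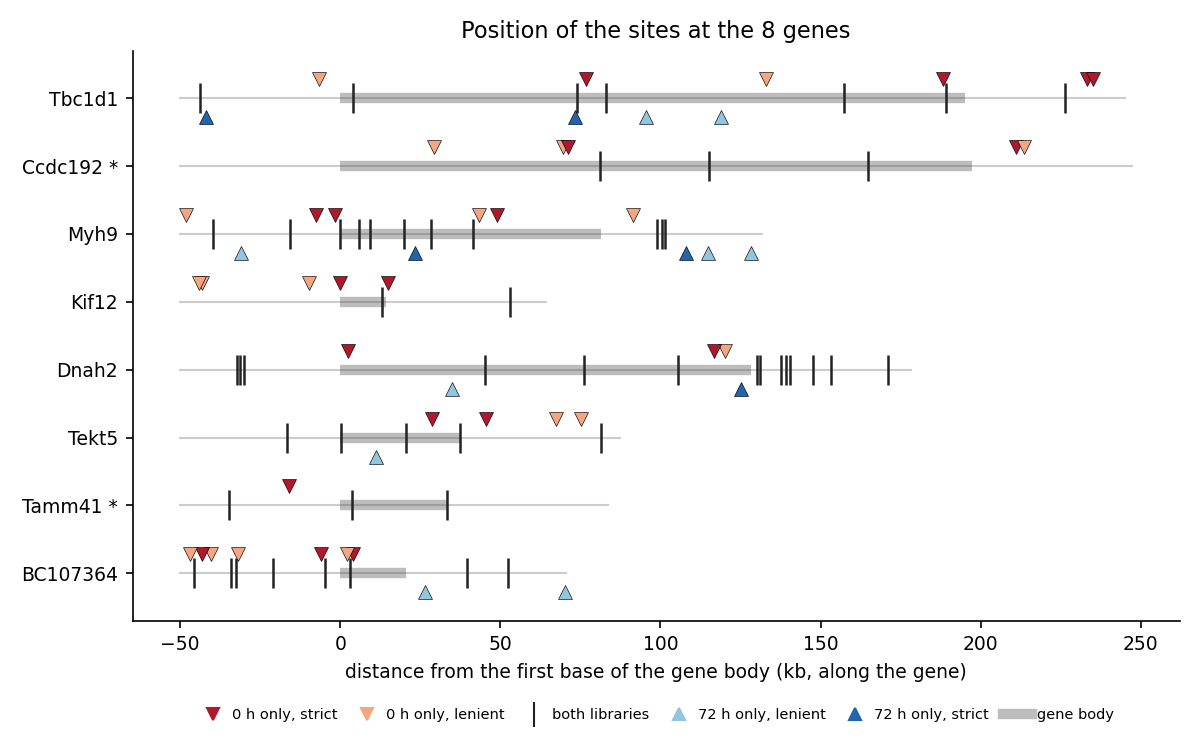
Position of each site along the 8 genes, in kb from the first base of the gene body, read in the direction of transcription; Ccdc192 and Tamm41 (asterisks) are drawn in the order of the chromosome. Triangles pointing down are 0 h-only sites, triangles pointing up 72 h-only sites and vertical bars shared sites, and the 0 h-only sites lie both inside genes and in the flanks.

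Kif12 was the member whose own start was strict at 0 h and had no peak at 72 h. Kif12 (gene ID 16552) spans chromosome 4, 63157948 to 63172145, and is the shortest member at 14.20 kb. Its start lay in a site of 926 bp (63171829 to 63172754) made of 2 0 h peaks, both listed as enriched. A further strict 0 h-only site (63156813 to 63157413) lay 0.835 kb beyond the end of the gene. Of all protein-coding gene starts, 0.814% lay in a strict 0 h-only site, 2.94% in any 0 h-only site, 1.35% in a 72 h-only site and 47.0% in a shared one. At 72 h the gene still had a site: a lenient shared one lay near its end (63158794 to 63159434), with the summits of both libraries 40 bp apart. The remaining 3 0 h-only sites were lenient. Of these, 1 lay 9.60 kb before the gene, and 2 lay nearer to Col27a1, which encodes a fibrillar collagen chain, the first of them across its annotated start (63214961 to 63215561). Col27a1 was named after its values were seen.

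Tbc1d1 had the most strict 0 h-only sites, 4 in all, and its starts differed in strictness. Tbc1d1 (gene ID 57915) spans chromosome 5, 64156305 to 64351486. The distal start lay in a shared site of 1477 bp (64159410 to 64160886) that held 3 peaks at 0 h, where it was strict, and 2 at 72 h, where it was lenient. The proximal start lay in a shared site that was strict in both libraries (64230023 to 64230687). Directly before it was a strict 72 h-only site (64229415 to 64230015), and 2.74 kb after it a strict 0 h-only one (64232793 to 64233393). The 72 h-only site nearly touches the shared one, and when a peak of the other library within 1 kb also barred a site, it was no longer counted as 72 h only (3 such sites at Tbc1d1 in place of 4).
The other strict 0 h-only sites lay near the far end of the gene, while a lenient one lay 6.49 kb before it. That at 64344148 to 64344748 was inside it, next to a strict shared site that begins at 64344968, and under the same gap of 1 kb it was no longer 0 h only (5 such sites in place of 6). Those at 64389181 to 64389781 and 64391157 to 64391757 lay 38.0 and 40.0 kb beyond the gene. Between them and the gene was a shared site, strict at 0 h and lenient at 72 h, with both summits at the same base (64382289 to 64382889). The second strict 72 h-only site of this window lay inside Pgm2, a phosphoglucomutase gene, 41.9 kb before Tbc1d1. Inside Tbc1d1, lenient 72 h-only sites lay 21.4 and 44.9 kb after the proximal start and a lenient 0 h-only site 59.1 kb after it.

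Myh9 had sites of every kind and the most sites in all, 22. Myh9 (gene ID 17886) spans chromosome 15, 77760585 to 77842175, on the minus strand. Its start lay in a shared site that was strict at both times (77842033 to 77842653), with summits 20 bp apart. Before the start, strict 0 h-only sites lay at 1.56 kb (77843431 to 77844031) and 7.58 kb (77849450 to 77850050), followed at 15.8 kb by a shared site that was strict in both libraries. The 0 h-only site nearest to the start lay within 1 kb of the shared site there and was barred with a gap of 1 kb to the other library, which left 5 of the 6 0 h-only sites of Myh9.
Inside the gene, a strict 72 h-only site lay 23.4 kb after the start (77818459 to 77819059) and a strict 0 h-only site 48.9 kb after it (77793020 to 77793620). Between these were 2 shared sites and a lenient 0 h-only one. Downstream of Myh9 the pattern turned: of 7 sites there, 3 were 72 h only, 3 shared and 1 a lenient 0 h-only one. The strict 72 h-only site among them lay in Apol9b, a gene of the apolipoprotein L family (77734029 to 77734629), 26.3 kb beyond Myh9.

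At Dnah2, 0 h-only sites sat at both ends of a gene whose surroundings were open in both libraries. Dnah2 (gene ID 327954) spans chromosome 11, 69420807 to 69549108, on the minus strand. Its annotated start lay in no site. The nearest was a strict 0 h-only site of 829 bp, made of 2 peaks, 2.35 kb after the start (69546339 to 69547167). The second strict 0 h-only site lay 117 kb after the start (69431939 to 69432539), and a lenient one 120 kb after it. Of the 3 shared sites inside the gene, all were strict at both times. The strict 72 h-only site (69423797 to 69424397) lay 125 kb after the start, close to the far end of the gene. The other 11 shared sites lay outside Dnah2, 6 of them nearest to Kdm6b, a histone demethylase gene named after its values were seen.

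Tekt5 had a start that was called in both libraries and was strict at 0 h alone. Tekt5 (gene ID 70426) spans chromosome 16, 10357952 to 10395455, on the minus strand. The site at its start (10394989 to 10395599) was strict at 0 h and lenient at 72 h, a combination found at 2.22% of all protein-coding gene starts, against 1.51% with the reverse. The summits were 10 bp apart. A strict 0 h-only site lay inside the gene, 28.7 kb after the start (10366443 to 10367043). A wider one, 1094 bp made of 2 peaks, lay 8.07 kb beyond its end and covered the annotated start of the long noncoding RNA gene Gm30724 (10349335 to 10350428). The remaining 0 h-only sites were 2 lenient ones that lay nearer to Emp2, a gene named after its values were seen, and the single 72 h-only site, also lenient, lay 11.1 kb after the Tekt5 start.

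Ccdc192 and Tamm41 held 8 and 4 sites, and none was 72 h only by an overlap of 1 bp. Ccdc192 (gene ID 75444) spans 197.3 kb of chromosome 18, 57533742 to 57731067 and was the nearest protein-coding gene of each of its sites. It had 8 sites, 5 of them 0 h only. The strict ones lay inside the gene at 57604535 to 57605135 and 13.8 kb beyond it at 57744600 to 57745200. Each had a lenient 0 h-only site close by, at 57602958 to 57603558 and at 57746994 to 57747594. The shared site at 57647984 to 57649798 was 1815 bp wide and held 3 peaks at 0 h and 1 at 72 h, 1 of the 3 being listed as enriched at 0 h. It is the third region that put Ccdc192 among the members, although the merged site is a shared one.
Tamm41 (gene ID 68971) spans chromosome 6, 115004381 to 115037929. Its 3 enriched regions were overlapping peaks that formed 1 site of 1277 bp (114987895 to 114989171), 15.8 kb outside the gene. By sites, Tamm41 thus had a single 0 h-only one, and none within 10 kb of the gene. Its other 3 sites were shared: 1 lenient inside the gene, 1 strict at both times across a gene end (115037538 to 115038203), and 1 strict at both times over the start of Vgll4, a gene named after its values were seen.

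BC107364 lies in a cluster of genes for small structural RNAs, and most of its sites covered one of them. BC107364 (gene ID 329716) spans chromosome 3, 96433788 to 96454361, on the minus strand. With its flanks, the window holds 18 tRNA genes, 5 genes of small nuclear RNAs (snRNAs, parts of the spliceosome) and Terc, the telomerase RNA gene. These genes are short: the tRNA genes are 71 to 74 bp and the snRNA genes 165 or 166 bp long. Of 7 0 h-only sites, 6 overlapped a tRNA or snRNA gene, as did 6 of 8 shared sites and 1 of 2 72 h-only sites. Of the 18 tRNA genes, 5 lay in a shared site, 4 in a 0 h-only site, 1 in a 72 h-only site and 8 in none. The genes were named after their values were seen.
The 3 strict 0 h-only sites all lay on such a gene. That at 96449924 to 96450524 overlapped the snRNA gene LOC115489800, and that at 96459887 to 96460710, made of 2 peaks, covered Rnu1b6, a U1 snRNA gene. That at 96497227 to 96497827 overlapped n-TNgtt12, an asparagine tRNA gene, and lay nearer to a protein-coding gene beyond the window, as did 2 lenient ones. By nearest gene, 4 of the 7 0 h-only sites belonged to BC107364.
The annotated start of BC107364 lay in a lenient 0 h-only site (96451954 to 96452554) that also reached n-THgtg7, a histidine tRNA gene. The 62 capitals of the sequence given above are the bases of this 72 bp gene that fall within the printed window. They hold, on the opposite strand, the B box (GGATTCGAACC as printed), an element inside tRNA genes to which the RNA polymerase III machinery binds. Of the 32851 windows before annotated starts, 11 hold a B box, 8 of them at starts in a shared site and 2 at starts in a 0 h-only site. An asparagine tRNA gene, n-TNgtt11, lay 0.808 kb after the start in a shared site that was strict at both times. The tRNA and U1 genes exist in near-identical copies that can share reads, and how reads with several matches were treated is not given in the sources used here. Peaks at single copies are therefore uncertain. When a 72 h peak within 1 kb also barred a site from being 0 h only, 2 of the 7 were left.

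**Figure D3:**
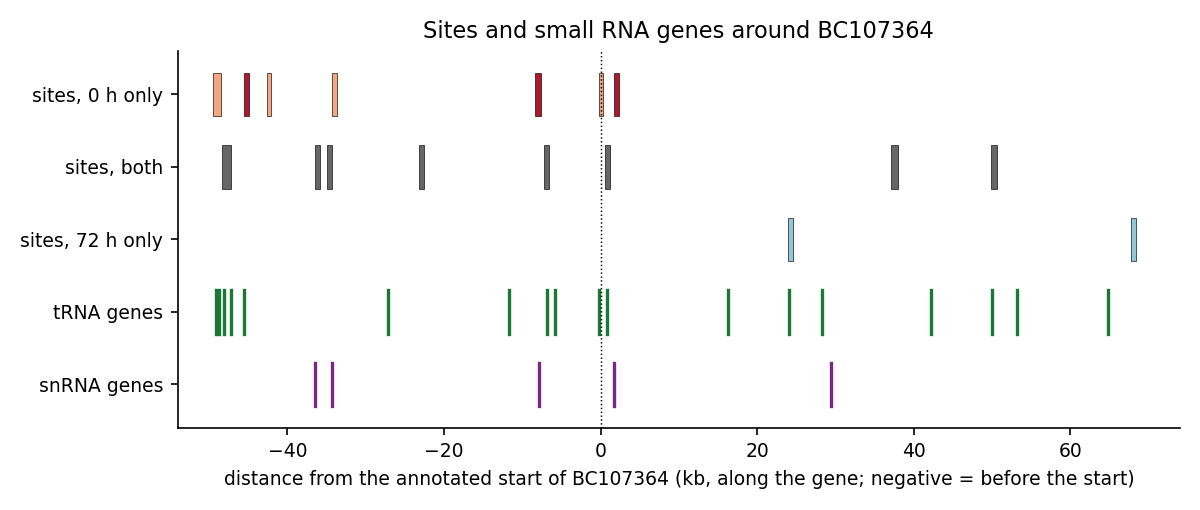
Sites around BC107364 by class (upper rows; darker red marks strict 0 h-only sites) and the tRNA and snRNA genes of the window (lower rows), in kb from the annotated start along the gene. Of the 7 0 h-only sites, 6 overlap a tRNA or snRNA gene, and both 72 h-only sites lie on the right, beyond the start.

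The strict shares of sites called in both libraries lay near those of all genes at both times. Of these 53 shared sites, 2 held a region listed as enriched at 0 h, 1 at Ccdc192 that counted in the choice and 1 in the BC107364 window that did not. Of the 53 shared sites, 39 were strict at 0 h (73.6%, 59.7 to 84.7) and 38 at 72 h (71.7%, 57.7 to 83.2). Over the 22246 shared sites of all genes, 72.8% were strict at 0 h and 78.0% at 72 h, both within the intervals of the 8 genes. Without the shared sites that held an enriched region, a setting chosen after seeing the data, 37 of 51 were strict at 0 h (72.5%, 58.3 to 84.1) and 36 at 72 h (70.6%, 56.2 to 82.5), against 72.8% and 78.0% of all such sites. By site, 33 were strict at both times, 6 at 0 h alone (11.3%, 4.27 to 23.0; background 8.43%), 5 at 72 h alone (9.43%, 3.13 to 20.7; background 13.6%) and 9 at neither. The 6 were 2 each at Tbc1d1 and BC107364 and 1 each at Ccdc192 and Tekt5. The closest summits of both libraries in a shared site lay a median of 28 bp apart (0 to 215), against 24.0 bp over all shared sites.

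**Figure D4:**
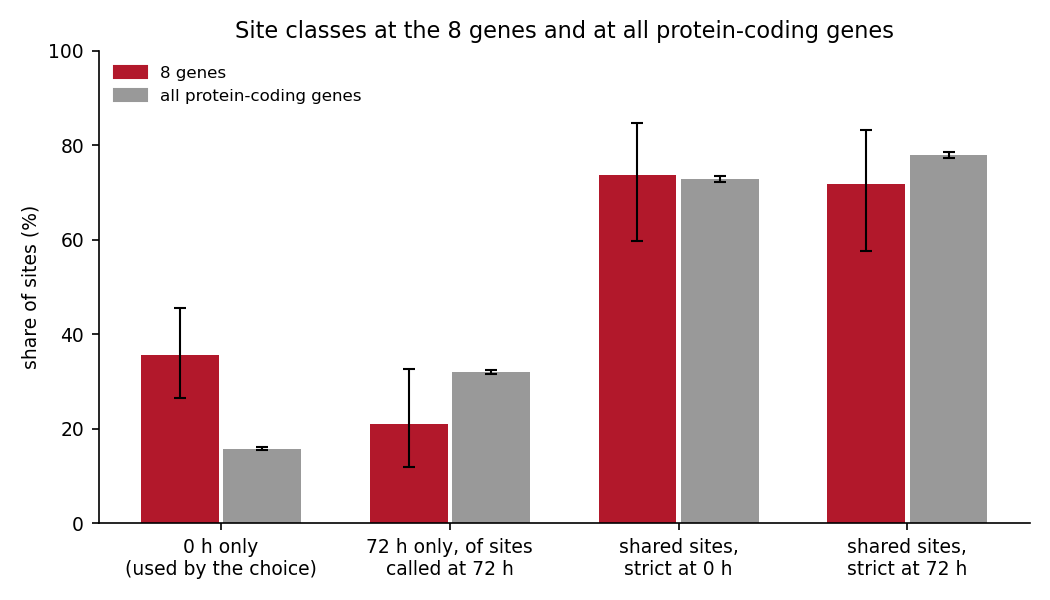
Share of sites in percent at the 8 genes (red) and at all protein-coding genes (grey), with exact 95% intervals for counting error. The 0 h-only share (35.6% against 15.8%) is what the members were chosen for, whereas the strict shares of shared sites (73.6% and 71.7%) have intervals that hold the background of 72.8% and 78.0%.

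Of the 67 sites called at 72 h, 14 were 72 h only (20.9%, 11.9 to 32.6), and the background of 32.0% lay inside this interval. Among the 37 0 h-only sites, 19 were strict (51.4%, 34.4 to 68.1), against 17.6% of all 0 h-only sites, a share fixed by the choice of strict regions. With the strict 0 h-only sites left out, 18 of the other 85 sites were 0 h only (21.2%, 13.1 to 31.4), against 13.4%; these come from the same contrast as the choice. More than 1 peak was merged in 6 of the 37 (16.2%, 6.19 to 32.0; background 3.97%), and overlapping enriched regions were counted singly in the choice. Of the 19 strict ones, 8 lay inside a member gene (42.1%, 20.3 to 66.5). No background was computed for this share, so nothing is read from it. On chromosomes with annotated starts, 4 of 32 0 h-only sites held a gene start (12.5%, 3.51 to 29.0; background 11.5%), as did 2 of 17 strict ones (11.8%, 1.46 to 36.4; background 17.7%). The 4 were the sites at Kif12, BC107364, Col27a1 and Gm30724.
The 0 h-only sites lay a median of 8.30 kb from the nearest shared site and 41.0 kb from the nearest 72 h-only site. Over all 6122 0 h-only sites near genes the medians were 13.6 and 43.1 kb. The median distance to another 0 h-only site, 6.02 kb against 47.9 kb, follows from choosing genes with several.

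Relatives of the members were taken from 6 lists of genes of like function. The 64 relatives with a site had 447 sites, counted per gene, of which 11.4% were 0 h only and 31.3% 72 h only. Over the sites of all protein-coding genes, each counted once, these shares were 15.8% and 26.9%. A strict 0 h-only site was found at 7 of the 64 (10.9%, 4.51 to 21.2; background 12.6%) and a strict 72 h-only site at 25 (39.1%, 27.1 to 52.1; background 33.1%). Both shares lay near the background.
Of 14 other axonemal dynein heavy chain genes, none had a strict 0 h-only site and 6 had a strict 72 h-only one (Dnah3, Dnah6, Dnah7a, Dnah8, Dnah12 and Dnah17). Of 4 other tektin genes, Tekt3 had 6 strict 72 h-only sites and no 0 h-only site, and none of the 4 had a strict 0 h-only one. Of 6 markers of multiciliated cells with an annotated start, 3 had it in a site: those of Ccno and Dnah9 were shared and that of Mcidas was 0 h only. The starts of Dnah5, Gmnc and Tekt1 lay in none, as did 48.7% of all protein-coding gene starts. The marker count thus lay near the background. The part of such cells in the sites at Dnah2 and Tekt5 was not tested.
Of 9 other genes of nonmuscle myosin II and its regulators, 1 had a strict 0 h-only site (Mylk) and 4 a strict 72 h-only one (Myh10, Myh14, Mylk and Rock2). Mylk (myosin light chain kinase) had 1 strict 0 h-only and 3 strict 72 h-only sites. Myh14, the heavy chain of another nonmuscle myosin II, had 12 sites, 9 of them shared, 2 lenient 0 h only and 1 strict 72 h only. Myh10 had 4 shared sites and 1 strict 72 h-only one.
Of 17 other kinesin genes, Kif5a, Kif5b and Kif20a had 1 strict 0 h-only site each, and 6 had a strict 72 h-only one (Kif1b, Kif3b, Kif5a, Kif13a, Kif13b and Kif16b). Kif16b, which encodes an endosomal kinesin, had 14 72 h-only sites, 5 of them strict, and no 0 h-only site, although at 283 kb it is far longer than Kif12. Of 13 other Rab GTPase-activating TBC genes, Tbc1d16 and Tbc1d22a had 1 strict 0 h-only site each, and 7 had a strict 72 h-only one (Tbc1d5, Tbc1d10a, Tbc1d14, Tbc1d15, Tbc1d16, Tbc1d22a and Tbc1d30). Tbc1d4, the closest relative of Tbc1d1 and named after its values were seen, had 3 shared sites and 1 lenient 0 h-only site. Of 7 other genes listed for cardiolipin metabolism, Lclat1 had 1 strict 0 h-only and 2 strict 72 h-only sites, and the other 6 had neither.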

How the data were processed

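According to the submitters' processing notes, reads were handled with Bowtie2 2.4.1, cutadapt 1.9.1, Picard 2.18.27, SAMtools 1.3.1, bedtools 2.26.0, deepTools 3.5.4 and MACS2 2.2.7.1, and the build is mm10. Their settings, any Tn5 shift, duplicate removal and the criterion for enriched regions were not stated in the labels. The deposited lists give, for each library, the positions of summits extended to 601 bp (nearly all rows) at 1e-05 and 1e-10, and regions named as enriched; they hold no scores or counts, so depth is unknown. Peak names carry the library, so peaks were called per library. Lists were merged into sites (overlap of at least 1 bp) and placed with the RefSeq gene table of GRCm38.p6 on chromosomes 1 to 19, X and Y. The background includes the sites of the 8 genes. All 8 members were described; other genes were named when a strict site of 1 library only lay at a listed relative, or nearer to them within a member's window, unless said otherwise. Members and lists were chosen with earlier results of these data known. Shares carry exact Clopper-Pearson 95% intervals. Site classing, run on simulated data, returned the simulated number of sites in each class. The simulated sites did not overlap and held at most 1 peak per library, so chains of merged peaks were not tested. Python 3.11.15, pandas 2.3.3, numpy 2.4.6, SciPy 1.17.1 and matplotlib 3.10.9 were used.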

Additional observations from a re-analysis of the deposited data

How the results depend on the processing

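The counts at the 8 genes moved by more than 1.5 times mainly with the window. Within 10 kb of the genes there were 23 0 h-only, 8 72 h-only and 28 shared sites, and in the gene bodies alone 15, 7 and 23, since fewer sites were then counted. Counting only sites nearest to a member left 32 shared sites, and using 1e-10 in both libraries left 33; the counts of 0 h-only (28 and 27) and 72 h-only sites (10 and 11) stayed within 1.5 times. With an overlap of at least 300 bp, a gap of 1 kb to the other library, or peaks without merging, the 0 h-only count was 46, 30 and 47 and the 72 h-only count 17, 13 and 14. Without BC107364, a setting chosen after seeing the data, they were 30 and 12. In every one of these settings the 8 genes together had more 0 h-only than 72 h-only sites, as the choice of members favours. The strict shares of shared sites stayed within their intervals in each setting where they were computed, and of the counts for single genes 85 stayed within 1.5 times and 27 did not. No paired analysis was possible because each time point has 1 library, and no library could be left out for the same reason.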

Other observations

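Because the BC107364 window lies in a tRNA cluster, tRNA genes in the rest of the genome were counted by the same classes, a count chosen after the data were seen. Of 390 tRNA genes outside that window, 159 lay in a site. Of these, 123 (77.4%, 95% interval 70.1 to 83.6) were in a shared site, 30 (18.9%, 13.1 to 25.8) in a 0 h-only site and 6 (3.77%, 1.40 to 8.03) in a 72 h-only site. Counted by site, 27 of 127 (21.3%, 14.5 to 29.4) were 0 h only and 5 (3.94%, 1.29 to 8.95) 72 h only. Among the 10902 starts of protein-coding genes that lay in a site, 5.73% (5.30 to 6.19) were 0 h only and 2.62% (2.33 to 2.94) 72 h only. These are counted by gene start, not by site. Over all 38823 sites near protein-coding genes, 15.8% were 0 h only and 26.9% 72 h only. The 15.8% lay inside the 0 h-only intervals of the tRNA genes and of the snRNA genes given next, whereas the 26.9% lay above their 72 h-only intervals. Of the 51 snRNA genes in a site outside the window, 44 were in a shared site, 7 (13.7%, 5.70 to 26.3) in a 0 h-only site and none in a 72 h-only site, which allows a share of up to 6.98%. Clustered and near-identical genes are not independent, so the intervals are too narrow, and the part of reads shared between copies was not tested.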
